A study of Mus musculus with 18 samples.

Results

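Described here are 10 genes picked for their level in the RPE/choroid of Abca4 knockout mice, in every genotype and in both tissues of the eye that were sequenced. They are Snx31, Rab3b, Rhbdl2, Mrps12, Ppp1r1b, Il12b, Tnfaip6, Ooep, Fam69c and Slc6a4, which are 10 of the 22558 genes in the deposited tables. They were chosen by their measured values, since their level in knockout RPE/choroid differed from that in wild-type or knock-in RPE/choroid. The RPE/choroid values are a description, with no test. The choice did not rest on the retinal libraries, and there the genes were tested. It was made with earlier results of these data known. RPE/choroid is the pigment epithelium that underlies the photoreceptors, dissected together with the vascular layer behind it. The groups were Abca4-/- mice (knockout), mice homozygous for the Abca4 L541P;A1038V allele (knock-in) and wild-type mice, all 30 days old and of mixed 129SV and C57BL/6 strain. Each genotype had 3 retinal and 3 RPE/choroid libraries of total RNA, 18 in all. Whether a group's libraries are from different mice is not in the labels. By the sex-linked transcripts Xist and Ddx3y, knockout retina, wild-type retina and knock-in RPE/choroid held libraries of both sexes. The libraries of these groups thus do not all share a mouse. In the other groups, and among libraries of the same sex, the spread, and the p-values that rest on it, may be technical.

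Abca4 is the flippase that clears retinal adducts from photoreceptor discs, and it is also made in the RPE. The 10 genes belong to no single pathway. Snx31 and Rab3b act in membrane traffic, Rhbdl2 is a membrane protease, Mrps12 belongs to the mitochondrial ribosome and Ppp1r1b to phosphatase signalling. Il12b and Tnfaip6 are known from inflammation, Ooep from the oocyte, Fam69c as a kinase-like protein of the secretory pathway and Slc6a4 as the serotonin transporter. The choroid holds macrophages, dendritic cells, mast cells and blood besides its vessels. In such bulk tissue, fewer cells of a type and less RNA per cell cannot be told apart.

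Assigned fragments numbered 11.55 to 23.58 M per retinal library and 14.62 to 30.05 M per RPE/choroid library. Abca4 itself averaged 78.7 ± 4.19 FPKM (fragments per kilobase of transcript and M mapped fragments) in knockout retina, 203.9 ± 25.8 FPKM in knock-in retina and 253.7 ± 27.4 FPKM in wild-type retina (SD, n = 3 each). In RPE/choroid it averaged 26.1 ± 0.49 FPKM in knockout, 38.6 ± 3.37 FPKM in knock-in and 44.4 ± 13.1 FPKM in wild-type mice. The summed level of 12 RPE markers was 7806.4 to 12657.2 FPKM over the 9 RPE/choroid libraries, against 408.7 to 508.0 FPKM over the 9 retinal libraries. Wild-type RPE/choroid library 2 stood apart, with a summed level of 12 rod photoreceptor markers of 2941.7 FPKM, against 239.0 to 667.4 FPKM in the other 8. By Xist and Ddx3y, every RPE/choroid library was male except knock-in library 2. In retina, 1 knockout, 0 knock-in and 2 wild-type libraries were male.

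The promoters of 7 of the 10 genes were at hand from RefSeq (GRCm38.p6), each with 250 bases before and 50 after the gene's start. The 4 printed are those of the pair with the largest tested log2 fold changes in retina (Rab3b and Tnfaip6), of the deepest fall in RPE/choroid (Il12b) and of the gene whose start lies next to that of a neighbour (Mrps12). Capitals mark, on either strand, the TATA box (letters TATAAA), the box bound by NF-Y (letters CCAAT), the AP-1 motif (letters TGANTCA) and the GC box (letters GGGCGG). Rab3b lies at chr4:108878820-108879119 (plus strand), Mrps12 at chr7:28741772-28742071 (minus strand), Il12b at chr11:44399813-44400112 (plus strand) and Tnfaip6 at chr2:52037863-52038162 (plus strand).
Rab3b: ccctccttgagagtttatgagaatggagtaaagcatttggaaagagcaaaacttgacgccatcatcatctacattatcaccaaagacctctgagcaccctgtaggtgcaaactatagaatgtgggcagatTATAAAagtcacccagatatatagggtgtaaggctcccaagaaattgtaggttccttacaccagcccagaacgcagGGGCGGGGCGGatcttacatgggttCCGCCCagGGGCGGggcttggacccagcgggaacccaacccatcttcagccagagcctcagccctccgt
Mrps12: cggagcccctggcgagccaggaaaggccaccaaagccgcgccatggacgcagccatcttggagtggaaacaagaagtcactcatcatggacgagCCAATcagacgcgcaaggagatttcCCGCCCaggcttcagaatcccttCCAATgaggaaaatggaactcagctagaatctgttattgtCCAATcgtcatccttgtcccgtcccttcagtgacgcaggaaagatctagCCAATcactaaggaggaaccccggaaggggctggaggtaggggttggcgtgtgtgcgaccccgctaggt
Il12b: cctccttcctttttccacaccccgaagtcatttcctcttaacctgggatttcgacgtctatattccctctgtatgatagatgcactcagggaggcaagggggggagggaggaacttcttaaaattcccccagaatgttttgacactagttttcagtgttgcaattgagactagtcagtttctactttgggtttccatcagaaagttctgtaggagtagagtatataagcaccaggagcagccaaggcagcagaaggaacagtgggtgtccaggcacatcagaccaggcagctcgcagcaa
Tnfaip6: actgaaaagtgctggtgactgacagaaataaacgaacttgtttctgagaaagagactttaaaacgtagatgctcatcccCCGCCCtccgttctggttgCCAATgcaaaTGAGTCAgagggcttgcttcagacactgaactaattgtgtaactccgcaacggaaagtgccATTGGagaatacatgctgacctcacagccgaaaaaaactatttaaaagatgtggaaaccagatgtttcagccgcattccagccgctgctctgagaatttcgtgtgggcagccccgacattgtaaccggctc
The Rab3b promoter held TATAAA 120 bases before the start and 4 GC boxes within 44 bases of it, a pair of them overlapping. The Mrps12 promoter held 4 NF-Y boxes, 156, 108, 68 and 19 bases before the start. The Tnfaip6 promoter held 2 NF-Y boxes, 1 GC box and 1 AP-1 match, which lies 142 bases before the start. The Il12b window held none of the searched letters. Over the 7 genes, 6 held a GC box, 4 an NF-Y box, 2 an AP-1 match (Tnfaip6 and an alternative Rhbdl2 start) and 1 TATAAA, against 35.7%, 37.4%, 7.81% and 13.6% of 32851 promoters of the same length. The E-box (letters CACGTG) and the cyclic AMP element (letters TGACGTCA) were in none of the 7 and in 7.15% and 1.79% of all promoters. A match is a description of these letters and not a site shown to be used.

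In RPE/choroid, the 5 higher genes reached 1.78 to 7.06 times their wild-type level in knockout mice, and 4 of the lower ones stood at 23.5% to 45.7% of it. Knockout and wild-type libraries did not overlap in FPKM for 9 of the 10 genes, all but Fam69c, against a background of 10.4% of the 15454 genes tested. Knockout and knock-in libraries did not overlap for all 10, against a background of 9.39%. Both counts follow from how the genes were picked, and the comparisons share the knockout libraries. Knock-in and wild-type libraries did not overlap for 3 of the 10, against a background of 4.85%. These libraries too were part of the choice.

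**Figure D1:**
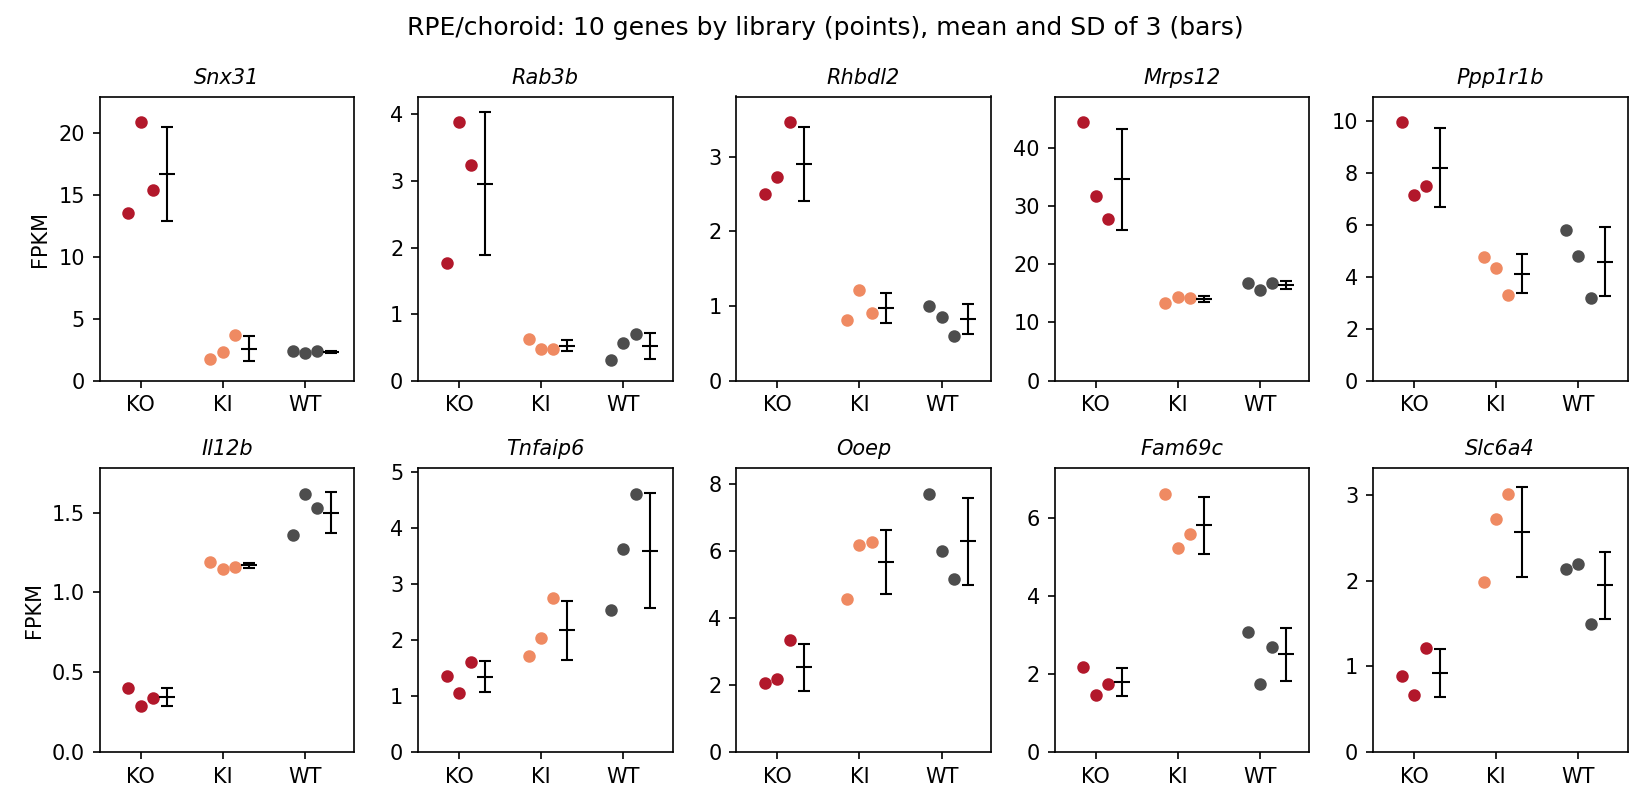
Deposited FPKM of the 10 genes in RPE/choroid, 1 panel per gene, with 1 point per library and the mean with SD of 3 libraries for knockout (KO), knock-in (KI) and wild type (WT). In the upper row every knockout point lies above all knock-in and wild-type points, and in the lower row Fam69c is the gene whose knock-in points lie above both other genotypes.

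Snx31 encodes a sorting nexin, a protein of endosomal membranes that handles the return of integrins to the cell surface. It lies at chr15:36433817-36485327 (mm9) with 1 listed transcript of 2695 bases. Its RPE/choroid libraries 0, 1 and 2 held 13.6, 20.9 and 15.4 FPKM in knockout, 1.76, 2.28 and 3.69 FPKM in knock-in and 2.43, 2.27 and 2.36 FPKM in wild-type mice. Every knockout library was above every other library, and the knock-in range enclosed the wild-type range. The knockout values rest on 791 to 1030 fragments per library, against 86 to 155 in knock-in and 97 to 170 in wild type. The log2 fold change was 2.82 (SE 0.223) for knockout over wild type, 2.70 (SE 0.224) for knockout over knock-in and 0.12 (SE 0.231) for knock-in over wild type.

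Rab3b encodes a small GTPase that sits on secretory vesicles and acts in regulated exocytosis. It lies at chr4:108551675-108644682 (mm9). In RPE/choroid its libraries held 1.77, 3.88 and 3.24 FPKM in knockout, 0.631, 0.477 and 0.474 FPKM in knock-in and 0.303, 0.567 and 0.694 FPKM in wild-type mice. The lowest knockout library was above the highest of the others, and knock-in and wild type overlapped. The fold was 5.68 for knockout over wild type (log2 2.51, SE 0.338) and 5.48 for knockout over knock-in (log2 2.45, SE 0.342). The noncoding 8030443G20Rik overlaps the end of Rab3b on the opposite strand in GENCODE M21, and no label or header states strand-aware counting, so reads of the pair cannot be told apart there. That gene had 0, 3 and 8 fragments in knockout, 0, 1 and 0 in knock-in and 1, 1 and 0 in wild-type RPE/choroid, against 124 to 244 fragments of Rab3b in knockout.

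Rhbdl2 encodes a rhomboid protease of the plasma membrane that cleaves proteins such as thrombomodulin and EGF within the membrane. It is on the same chromosome as Rab3b, 14.8 Mb away, at chr4:123465118-123507147 (mm9). RPE/choroid levels of Rhbdl2 were 2.5, 2.73 and 3.46 FPKM in knockout, 0.818, 1.21 and 0.902 FPKM in knock-in and 1.0, 0.856 and 0.604 FPKM in wild-type mice. The groups separated as for Rab3b, with 57 to 86 fragments per library in knockout, against 17 to 19 in knock-in and 11 to 29 in wild type. Fitted on fragments, the log2 fold change was 1.78 (SE 0.267) for knockout over wild type and 1.59 (SE 0.268) for knockout over knock-in.

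Mrps12 encodes a protein of the small subunit of the mitochondrial ribosome. It is the shortest transcript of the 10, 684 bases at chr7:29524660-29526800 (mm9), and had the highest level per length. The RPE/choroid libraries held 44.4, 31.8 and 27.8 FPKM in knockout, 13.4, 14.3 and 14.2 FPKM in knock-in and 16.8, 15.5 and 16.8 FPKM in wild-type mice. Knockout was above both, and in FPKM every knock-in library was below every wild-type library. In CPM (fragments per M with TMM scaling), knock-in libraries held 5.71, 6.97 and 8.15 and wild-type libraries 7.39, 8.08 and 9.85, which overlap. The log2 fold change, fitted on fragments, was 0.99 (SE 0.154) for knockout over wild type, 1.27 (SE 0.157) for knockout over knock-in and -0.28 (SE 0.158) for knock-in over wild type.

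Ppp1r1b encodes DARPP-32, which inhibits protein phosphatase 1 once protein kinase A has phosphorylated it, as happens downstream of dopamine. It lies at chr11:98210052-98219109 (mm9). DARPP-32 transcripts in RPE/choroid stood at 9.94, 7.16 and 7.48 FPKM in knockout, 4.75, 4.35 and 3.28 FPKM in knock-in and 5.79, 4.78 and 3.17 FPKM in wild-type mice. Knockout lay above both, and knock-in and wild type overlapped. Its fold was the smallest of the 5 higher genes, 1.78 over wild type (log2 0.83, SE 0.137) and 1.99 over knock-in (log2 1.00, SE 0.139).

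Il12b encodes the p40 subunit shared by interleukins 12 and 23, cytokines of dendritic cells and macrophages. It lies at chr11:44213565-44227519 (mm9). Its RPE/choroid libraries held 0.402, 0.291 and 0.335 FPKM in knockout, 1.19, 1.15 and 1.16 FPKM in knock-in and 1.36, 1.62 and 1.53 FPKM in wild-type mice. The 3 genotypes did not overlap, with knockout lowest and wild type highest. The counts are small, 11 to 18 fragments per library in knockout, 33 to 52 in knock-in and 50 to 93 in wild type. Knockout stood at 23.5% of wild type (log2 -2.09, SE 0.221) and 29.7% of knock-in (log2 -1.75, SE 0.224), and the log2 fold change of knock-in over wild type was -0.34 (SE 0.203).

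Tnfaip6 encodes TSG-6, a secreted hyaluronan-binding protein that TNF and interleukin 1 induce and that dampens inflammation. It lies at chr2:51893633-51912201 (mm9). In RPE/choroid Tnfaip6 stood at 1.36, 1.05 and 1.61 FPKM in knockout, 1.72, 2.04 and 2.75 FPKM in knock-in and 2.54, 3.63 and 4.61 FPKM in wild-type mice. Knockout was below both, while the highest knock-in library lay above the lowest wild-type library. In CPM, the highest knock-in library (2.94) was below the lowest wild-type library (3.69). Knockout stood at 38.4% of wild type (log2 -1.38, SE 0.193) and 61.1% of knock-in (log2 -0.71, SE 0.196), and knock-in at 62.9% of wild type (log2 -0.67, SE 0.188).

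Ooep encodes a protein of the subcortical maternal complex, which the oocyte lays down for the early embryo. It lies at chr9:78224710-78226395 (mm9). Its RPE/choroid libraries held 2.06, 2.18 and 3.33 FPKM in knockout, 4.56, 6.18 and 6.26 FPKM in knock-in and 7.72, 6.01 and 5.17 FPKM in wild-type mice. Knockout lay below both, which overlapped. Knockout stood at 39.2% of wild type (log2 -1.35, SE 0.232) and 44.0% of knock-in (log2 -1.19, SE 0.234).

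Fam69c encodes a kinase-like protein of the endoplasmic reticulum, and it lies at chr18:84889634-84909828 (mm9). Its RPE/choroid libraries held 2.18, 1.45 and 1.75 FPKM in knockout, 6.62, 5.22 and 5.58 FPKM in knock-in and 3.07, 1.74 and 2.70 FPKM in wild-type mice. Knock-in was the high group, above every library of the others, and knockout and wild type overlapped. The log2 fold change was 1.19 (SE 0.19) for knock-in over wild type and -1.70 (SE 0.194) for knockout over knock-in, against -0.52 (SE 0.196) for knockout over wild type. It was thus the gene of the 10 with the largest gap between knock-in and wild type.

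Slc6a4 encodes the serotonin transporter, which takes serotonin up into neurons, platelets and mast cells. It lies at chr11:76812099-76845845 (mm9). In RPE/choroid Slc6a4 stood at 0.887, 0.663 and 1.22 FPKM in knockout, 1.99, 2.72 and 3.02 FPKM in knock-in and 2.14, 2.2 and 1.49 FPKM in wild-type mice. Knockout lay below both, which overlapped. Knockout stood at 45.7% of wild type (log2 -1.13, SE 0.254) and 36.0% of knock-in (log2 -1.47, SE 0.255).

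**Figure D2:**
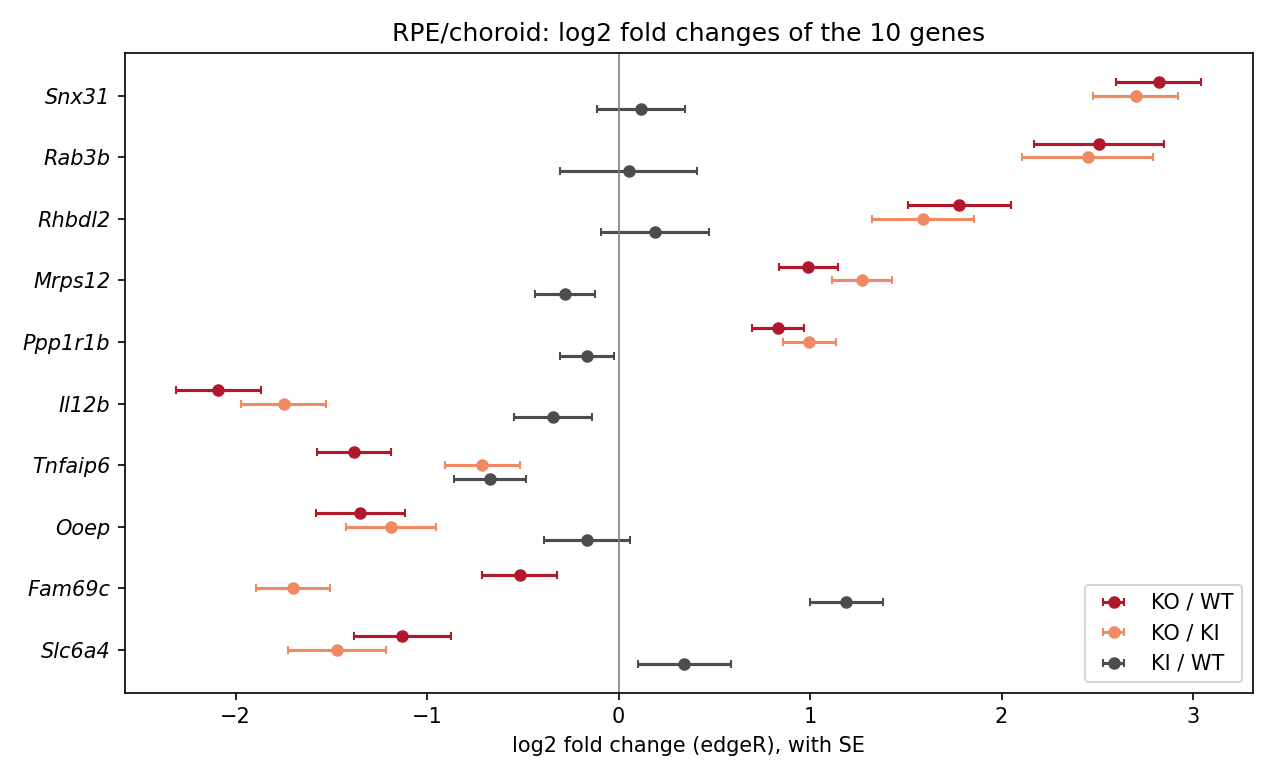
Fitted log2 fold changes (points, edgeR) with their SE (bars) of the 10 genes in RPE/choroid, for knockout over wild type, knockout over knock-in and knock-in over wild type. Snx31 and Rab3b lie farthest to the right for knockout, Il12b farthest to the left, and Fam69c is the gene with a knock-in over wild type value above 1.

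The rod-rich and the female library were each left out. Without the rod-rich wild-type library 2, the log2 fold changes of knockout over wild type were 2.77 for Snx31, 2.62 for Rab3b, -2.12 for Il12b and -0.43 for Fam69c. With a term for rod content they were 2.82, 2.52, -2.10 and -0.50. Without the female knock-in library 2, the log2 fold changes of knockout over knock-in were 2.97 for Snx31, 2.29 for Rab3b, -1.81 for Il12b and -1.71 for Fam69c.

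Marker sums were made for 17 cell types. Those of mast cells, platelets, macrophages and dendritic cells, RPE and erythroid cells are given here. The summed level of 10 mast cell markers was 65.7 to 85.2 FPKM in knockout, 86.7 to 117.6 FPKM in knock-in and 86.4 to 96.6 FPKM in wild-type RPE/choroid. The knockout libraries were thus the 3 lowest, by the narrow margin of 85.2 against 86.4 FPKM. Of the 9 tested mast cell markers, 0 were called by edgeR in any pair of genotypes. Cpa3, a mast cell protease, was among the 3 genes most like Slc6a4 across the 9 libraries (r = 0.951). Its log2 fold changes were -0.45 for knockout over wild type and -0.60 for knockout over knock-in (edgeR adjusted p = 0.161 and 0.122). Slc6a4 was picked for its knockout difference, so the direction of a gene most like it follows from that choice. The sum of 12 platelet markers was 31.0 to 33.1 FPKM in knockout, 30.0 to 35.5 FPKM in knock-in and 38.7 to 39.0 FPKM in wild type. Knockout and knock-in thus overlapped for platelets, and 6 of the 12 markers were tested. The sum of 14 macrophage and dendritic cell markers, the cells known for Il12b, was 512.1 to 576.9 FPKM in knockout, 620.1 to 783.7 FPKM in knock-in and 531.3 to 831.1 FPKM in wild type. The sum of 12 RPE markers was 7806.4 to 8483.6 FPKM in knockout, 7952.0 to 12657.2 FPKM in knock-in and 9610.3 to 10170.2 FPKM in wild type. The sum of 8 erythroid markers was 137.1 to 293.2 FPKM in knockout, 205.7 to 513.5 FPKM in knock-in and 280.2 to 474.8 FPKM in wild type. No marker of these lists was at 0 in all 9 RPE/choroid libraries, and the part of these cells in the 10 genes' differences was not tested.

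**Figure D3:**
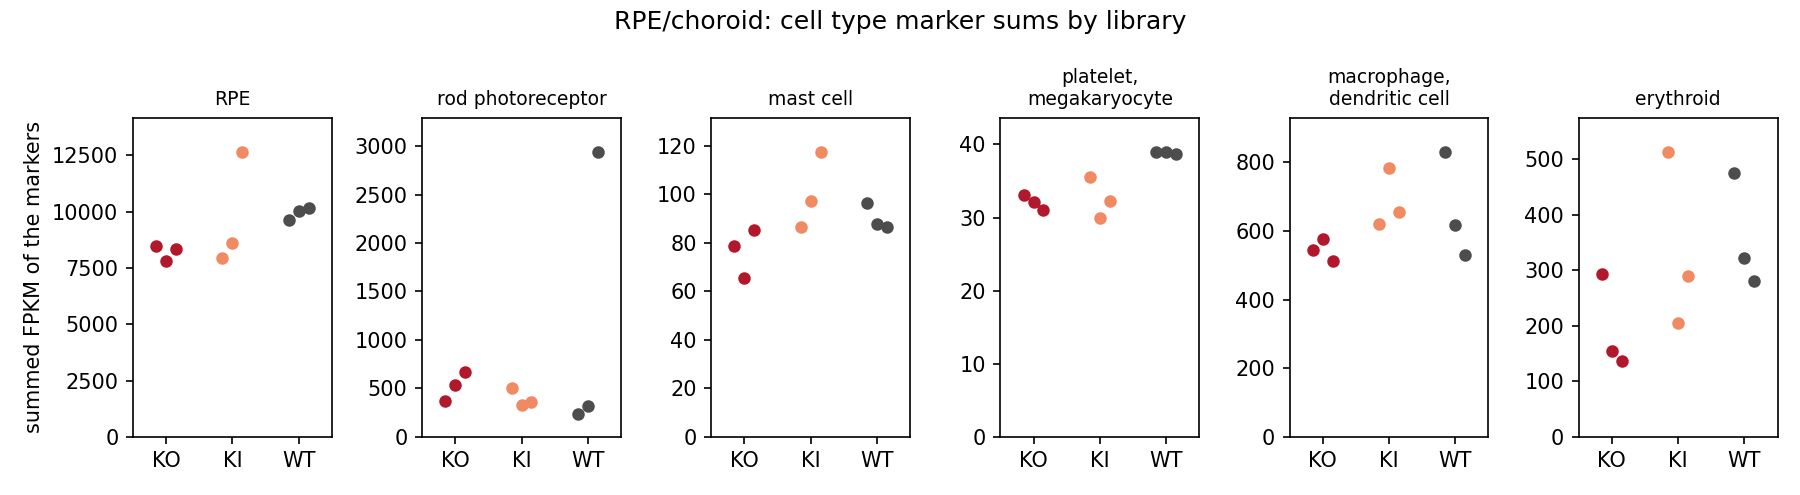
Summed FPKM of cell type markers in each RPE/choroid library, 1 panel per cell type, for knockout (KO), knock-in (KI) and wild type (WT). The 3 knockout points are the lowest for mast cells, the 3 wild-type points are the highest for platelets, and 1 wild-type library reaches 2941.7 FPKM for rods.

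Neighbouring genes were set beside each of the 10, which lie on 7 chromosomes, with 3 on chromosome 11 that are 21.4 Mb or more apart and 2 on chromosome 4. The nearest tested gene was taken on each side, passing over symbols of the Rik, Gm, LOC, Mir, Sno, -ps and BC kinds and other clone names. BC002163 beside Rhbdl2 could thus not be among these 20. None of the 20 was called by edgeR or by limma in any pair of genotypes in RPE/choroid. At an unadjusted p under 0.05, 7 of the 20 passed for knockout against wild type, 6 for knockout against knock-in and 2 for knock-in against wild type, against 15.5%, 12.2% and 5.53% of all genes. DESeq2 called Akirin1 (log2 -0.28) beside Rhbdl2 and Rif1 (log2 0.34) beside Tnfaip6 for knockout against wild type, with adjusted p-values of 0.0367 and 0.00475.

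Sars2, the mitochondrial seryl-tRNA synthetase, starts on the opposite strand 147 bases from the start of Mrps12 in RefSeq (GRCm38.p6), so the printed Mrps12 promoter covers both starts. Its log2 fold change for knockout over wild type in RPE/choroid was -0.41 (SE 0.138, edgeR adjusted p = 0.201), against 0.99 for Mrps12. Stard3, whose annotated span begins 0.6 kb after that of Ppp1r1b ends, had a log2 fold change of -0.10, against 0.83 for Ppp1r1b. Within 1 Mb of the 10 genes, 234 tested genes were counted, of which 4 (1.71%) were called for knockout against wild type (BC002163 and Ppt1 beside Rhbdl2, Lgals7 beside Mrps12 and Pttg1 beside Il12b), against 0.472% of all genes. For knockout against knock-in the same windows held 5 called genes (2.14%, against 0.453% of all genes), Zadh2 beside Fam69c being the added one, and none for knock-in against wild type. The windows surround genes that were picked on these libraries, and the share was not tested.

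**Figure D4:**
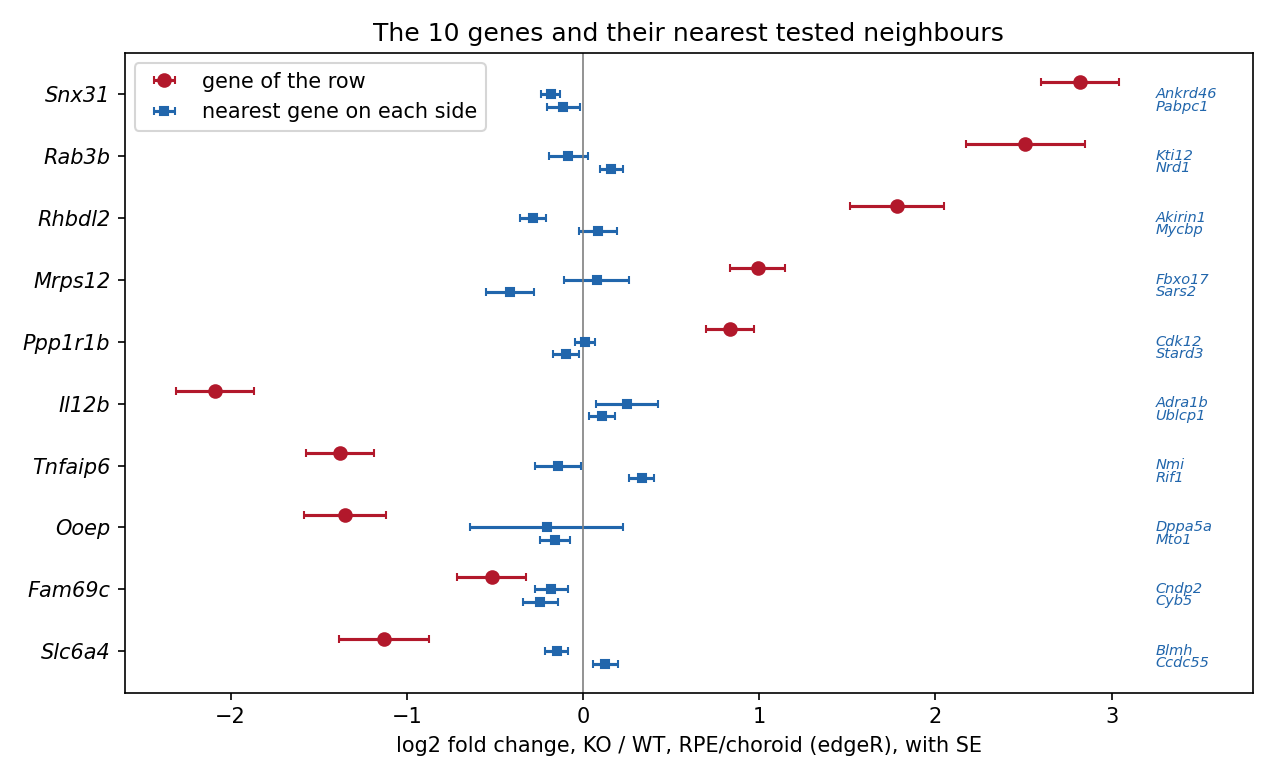
Log2 fold change of knockout over wild type in RPE/choroid (edgeR) with SE for each of the 10 genes (circles) and for the nearest tested gene on each side (squares, named at the right). Rik, Gm, LOC, BC and like symbols were passed over, as in the text. The 20 neighbours lie between -0.413 and 0.333, while 9 of the 10 genes lie beyond 0.8 in either direction.

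Partners of the 10 gene products were listed in 10 sets, with 178 tested genes in RPE/choroid. None of the 178 was called by edgeR or limma in any pair of genotypes in RPE/choroid, where edgeR called 0.472% of all genes for knockout against wild type, 0.453% for knockout against knock-in and 0.0647% for knock-in against wild type. At an unadjusted p under 0.05, 25 of the 178 (14.0%) passed for knockout against wild type, 22 (12.4%) for knockout against knock-in and 8 (4.49%) for knock-in against wild type, against 15.5%, 12.2% and 5.53% of all genes. DESeq2 called 7 of 180 list genes (3.89%) for knockout against wild type, where it called 3.36% of all genes, and 3 of 183 (1.64%) for knockout against knock-in, where it called 1.95%. It called 0 of 193 for knock-in against wild type (0.259% of all genes). The shares of DESeq2 calls were thus near those of all genes, and the DESeq2 calls named below are values of single genes.

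Among the sorting nexins and retromer subunits, 0 of 33 were called, and the median log2 fold change of knockout over wild type was -0.05, against -0.01 for all genes. Snx3 and the retromer core subunit Vps35, the most abundant, had -0.15 (SE 0.0628) and -0.06 (SE 0.0599), and DESeq2 called Snx22 at -0.20 (adjusted p = 0.034). Of 27 genes of Rab3 and Rab27 secretion, 0 were called (median -0.09). Rab3a, the neuronal relative of Rab3b, had a log2 fold change of -0.30 (SE 0.283) for knockout over wild type. That negative value rests on the rod-rich wild-type library 2, which held 36.6 FPKM of Rab3a. The knockout libraries held 17.9 to 21.7 FPKM, and no other wild-type library lay above that range. Of 14 rhomboid relatives and substrates, 0 were called (median 0.06), and thrombomodulin (Thbd), a substrate of the Rhbdl2 product, had a log2 fold change of 0.14 (SE 0.0664).

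Of 32 other genes of the mitochondrial small ribosomal subunit, 0 were called by edgeR. Their log2 fold changes of knockout over wild type ran from -0.36 to 0.17 with a median of -0.10, so every one lay below the value of Mrps12. DESeq2 called 2 of them lower, Mrps24 (log2 -0.36, adjusted p = 0.0391) and Aurkaip1 (log2 -0.34, adjusted p = 0.0305). Of 17 genes of dopamine and DARPP-32 signalling, 0 were called (median -0.02). The phosphatase 1 catalytic genes Ppp1ca and Ppp1cc, whose products DARPP-32 inhibits, had log2 fold changes of -0.13 (SE 0.0523) and -0.13 (SE 0.0582).

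Of 9 tested genes of the interleukin 12 family and its receptors, 0 were called by edgeR, and 9 of 9 lay above 0 for knockout over wild type, from 0.08 to 0.78, against 46.5% of all genes. For knockout over knock-in, which shares the knockout libraries, 8 of 9 did, from -0.45 to 0.53, against 48.7% of all genes. In retina 5 of 7 lay above 0 for knockout over wild type and 3 of 7 for knockout over knock-in. DESeq2 called Stat3, a transducer of interleukin 23 signals, at a log2 of 0.30 (adjusted p = 0.00185), and its level was 35.7 ± 1.64 FPKM in knockout, 30.5 ± 1.30 FPKM in knock-in and 28.4 ± 2.08 FPKM in wild type (SD, n = 3 each). Of 20 genes of hyaluronan matrix and TSG-6 induction, 0 were called by edgeR (median -0.09). DESeq2 called Il1b, which encodes interleukin 1 beta, an inducer of Tnfaip6, for knockout against wild type (log2 -1.76, adjusted p = 0.0358) and against knock-in (log2 -2.12, adjusted p = 0.00637). Il1b averaged 0.316 FPKM in knockout, 1.42 FPKM in knock-in and 1.09 FPKM in wild-type RPE/choroid. In the other direction, DESeq2 called Bcan, which encodes the hyaluronan-binding proteoglycan brevican, for knockout against knock-in (log2 2.19, adjusted p = 0.000879). Bcan averaged 1.97 FPKM in knockout and 0.392 FPKM in knock-in RPE/choroid, and edgeR gave it an adjusted p of 0.114. DESeq2 did not call Bcan for knockout against wild type or for knock-in against wild type.

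Of 13 genes of serotonin synthesis, breakdown and reception, 0 were called by edgeR (median 0.00). DESeq2 called the serotonin receptor channel Htr3a (log2 -0.998, adjusted p = 0.00431) and the decarboxylase Ddc (log2 -0.52, adjusted p = 0.00266) for knockout against wild type. Htr3a averaged 8.23 ± 2.77 FPKM in knockout, 10.5 ± 2.86 FPKM in knock-in and 16.1 ± 1.39 FPKM in wild type, and edgeR gave it an adjusted p of 0.138. The serotonin-degrading Maoa had a log2 fold change of -0.12 (SE 0.0744). Only 4 of 18 oocyte genes passed the filter on low counts, and 0 were called. Tle6, a partner of the Ooep product in the maternal complex, averaged 2.03 ± 0.0302 FPKM in knockout, 2.04 ± 0.262 FPKM in knock-in and 1.91 ± 0.229 FPKM in wild type. Of 9 kinase-like relatives of Fam69c, 0 were called (median 0.00), and Fam20b had a log2 fold change of 0.01 (SE 0.0573).

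Across the 9 RPE/choroid libraries, the 5 higher genes correlated with each other at r = 0.816 to 0.943 in log2 CPM and the 5 lower genes at r = 0.287 to 0.919. The points share their libraries and the genes were chosen for the genotype difference, so these r values describe the choice. Of 12812 genes, those most like Snx31 were Slfn8 (r = 0.986), Nov (r = 0.974) and Pttg1 (r = 0.969). Pttg1, the securin gene, averaged 58.1 ± 6.82 FPKM in knockout, 6.16 ± 0.822 FPKM in knock-in and 5.65 ± 0.942 FPKM in wild-type RPE/choroid. Slfn8 also followed Mrps12 (r = 0.959), after Abhd2 (r = 0.972). Most like Il12b were Bcat1, Tlcd2 and Mboat2 (r = 0.985, 0.984 and 0.972), and Tlcd2 averaged 5.99 FPKM in knockout, 14.2 FPKM in knock-in and 14.2 FPKM in wild type.

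Vps13d, Ppargc1a and Pard3b followed Rab3b with r from 0.978 to 0.988, and their log2 fold changes of knockout over wild type were 0.17 to 0.27, against 2.51 for Rab3b. Vit, Kcnn4 and Ubr2 followed Ppp1r1b (r = 0.991, 0.984 and 0.965), and Adamtsl4, Pcyox1 and Zfp109 followed Rhbdl2 (r = 0.982, 0.976 and 0.971). The largest log2 fold change of knockout over wild type among these 6 was 0.84, for Zfp109. Clec4a1, Mreg and Tmem202 were the closest to Ooep (r = 0.974, 0.965 and 0.954), and Pycrl, Clk4 and Hsd17b10 to Tnfaip6 (r = 0.953 to 0.955). Tlr2 and Gnai2 were among the genes closest to Fam69c (r = 0.958 and 0.956). Besides Cpa3, Tmem202 and Aif1l were closest to Slc6a4 (r = 0.952 each).

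In retina, 5 of the 10 genes passed the filter on low counts, Rab3b, Mrps12, Ppp1r1b, Tnfaip6 and Fam69c. By edgeR's quasi-likelihood test, 1 of these 5, Tnfaip6, was called for knockout against wild type, where 0.98% of 14699 genes were called. At an unadjusted p under 0.05, 3 of the 5 passed in that comparison, against 12.5% of all genes. For knockout against knock-in 0 of 5 were called by edgeR, DESeq2 or limma (background 1.26%), with 2 at an unadjusted p under 0.05, against 11.7% of all genes. For knock-in against wild type 0 of 5 were called by these tools (background 0.265%), also with 2 at an unadjusted p under 0.05, against 8.5% of all genes. Without a test, knockout and wild-type retinas did not overlap in FPKM for 4 of the 10 genes (Snx31, Rab3b, Ppp1r1b and Tnfaip6). The background was 11.8% of the tested genes, while the 10 include 5 that did not pass the filter, Snx31 among them. The groups did not overlap for 2 genes (Snx31 and Fam69c, background 10.8%) between knockout and knock-in, and for 4 (Rab3b, Ppp1r1b, Tnfaip6 and Fam69c, background 8.77%) between knock-in and wild type. In CPM the counts were 3, 2 and 2, since Ppp1r1b overlapped between knockout and wild type, and Rab3b and Ppp1r1b between knock-in and wild type.

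**Figure D5:**
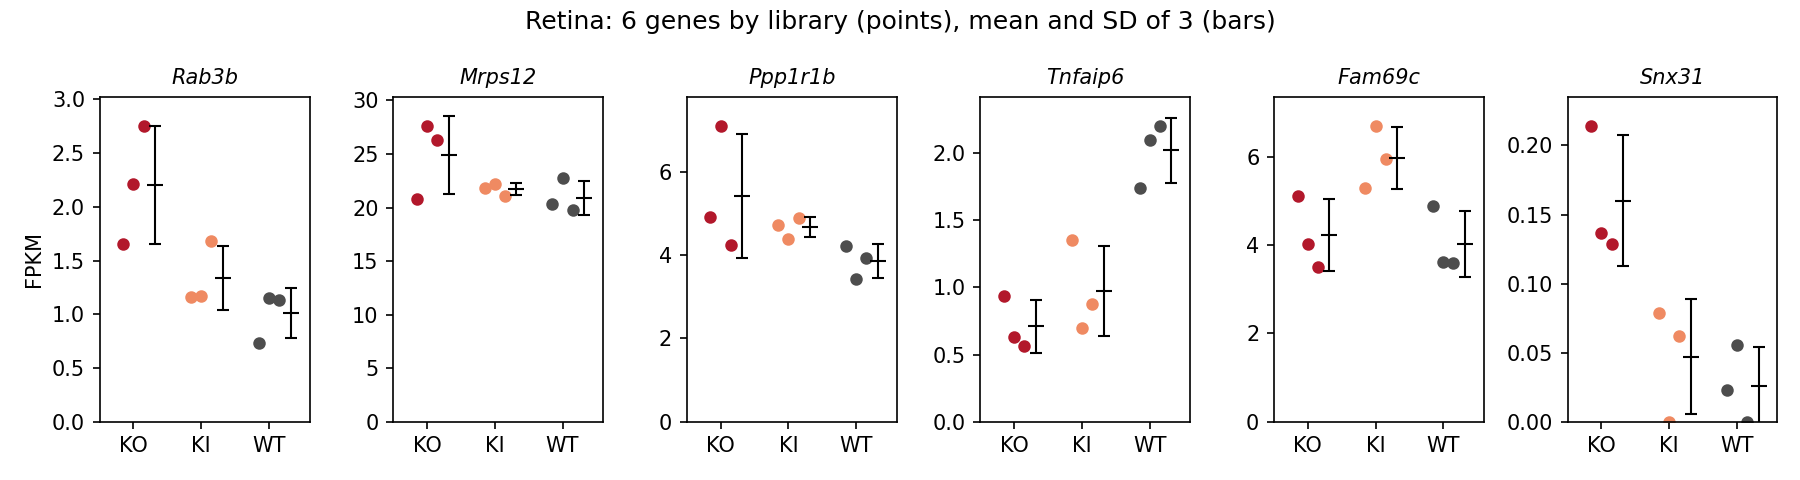
Deposited FPKM in retina of the 5 tested genes and Snx31, with 1 point per library and the mean with SD of 3 libraries for knockout (KO), knock-in (KI) and wild type (WT). The Tnfaip6 points of knockout and knock-in lie below all wild-type points, and the knockout points of Rab3b and Snx31 lie above all wild-type points.

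Tnfaip6 was lower in knockout retina, as it was in knockout RPE/choroid. Its retinal libraries 0, 1 and 2 held 0.935, 0.634 and 0.566 FPKM in knockout, 1.35, 0.695 and 0.878 FPKM in knock-in and 1.74, 2.1 and 2.2 FPKM in wild-type mice. All knockout and all knock-in libraries were below all wild-type libraries, and knockout and knock-in overlapped. The values rest on 9 to 28 fragments per library in knockout, 22 to 44 in knock-in and 33 to 41 in wild type. The log2 fold change was -1.44 (SE 0.298, edgeR adjusted p = 0.0353) for knockout over wild type, and -1.05 (SE 0.282, edgeR adjusted p = 0.208) for knock-in over wild type.

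The Tnfaip6 call in retina did not hold throughout. Over the alternatives the edgeR, DESeq2 or limma adjusted p ran from 0.0125 to 0.171. It was 0.0538 with a term for sex and 0.171 with a term for lens content (edgeR), and 0.0716 with limma. In edgeR it was 0.169 and 0.13 without knockout library 1 or 2 and 0.0989, 0.145 and 0.0745 without wild-type library 0, 1 or 2. The summed level of 14 lens markers was 543.5 to 16241.0 FPKM in knockout, 346.5 to 8147.1 FPKM in knock-in and 57.1 to 811.8 FPKM in wild-type retina. The authors' deposited table gave Tnfaip6 a q-value of 0.00547 for knockout against wild type and 0.0166 for knock-in against wild type.

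Rab3b had 1.65, 2.21 and 2.75 FPKM in knockout retina, 1.16, 1.17 and 1.68 FPKM in knock-in retina and 0.735, 1.15 and 1.13 FPKM in wild-type retina. Knockout was above wild type in every library, and overlapped knock-in by 1 library of each. Its log2 fold change was 1.09 for knockout over wild type (SE 0.246, edgeR adjusted p = 0.0618), which missed the threshold, and 0.71 for knockout over knock-in (SE 0.23, edgeR adjusted p = 0.201). DESeq2 gave an adjusted p of 0.00569 for knockout against wild type, and over all alternatives it ran from 0.00569 to 0.383. In edgeR it passed at 0.0153 without knockout library 0 and at 0.0441 without knock-in library 2. The authors' deposited table gave q-values of 0.00293 for knockout against wild type and 0.0102 for knockout against knock-in. In retina the antisense 8030443G20Rik had 0 to 2 fragments per library.

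Fam69c was highest in knock-in in both tissues. Its retinal libraries held 5.11, 4.03 and 3.51 FPKM in knockout, 5.28, 6.69 and 5.95 FPKM in knock-in and 4.89, 3.61 and 3.60 FPKM in wild-type mice. Every knock-in library was above every other library. Its log2 fold change was 0.58 for knock-in over wild type (SE 0.147, edgeR adjusted p = 0.161) and -0.53 for knockout over knock-in (SE 0.144, edgeR adjusted p = 0.109), and neither passed. For knockout over wild type it was 0.06 (SE 0.151, edgeR adjusted p = 0.931). All 3 knock-in retinas were female, and with a term for sex the log2 fold changes were 0.70 for knock-in over wild type (edgeR adjusted p = 0.19) and -0.59 for knockout over knock-in (edgeR adjusted p = 0.0687). The authors' deposited table gave a q-value of 0.0447 for knock-in against wild type and 0.125 for knockout against knock-in.

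Mrps12 and Ppp1r1b, higher in knockout RPE/choroid, did not pass in retina. Mrps12 held 20.8, 27.6 and 26.3 FPKM in knockout, 21.8, 22.2 and 21.1 FPKM in knock-in and 20.3, 22.8 and 19.8 FPKM in wild-type retina, which overlap. Its log2 fold change of knockout over wild type was 0.26 (SE 0.163, edgeR adjusted p = 0.532). Ppp1r1b held 4.92, 7.09 and 4.24 FPKM in knockout, 4.72, 4.39 and 4.88 FPKM in knock-in and 4.21, 3.42 and 3.94 FPKM in wild-type retina. Its knockout and wild-type libraries were apart by the narrowest margin, 4.24 against 4.21 FPKM, and overlapped in CPM. Its log2 fold change of knockout over wild type was 0.51 (SE 0.191, edgeR adjusted p = 0.286).

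The other 5 genes were near the floor in retina, with 0 to 12 fragments per library. Snx31 had 12, 8 and 4 fragments in knockout, 5, 0 and 3 in knock-in and 1, 2 and 0 in wild-type retina. Knockout was again the highest group, in every library except that 4 in knockout library 2 and 5 in knock-in library 0 cross before scaling for depth. Per M assigned fragments, knockout was 5.9 times wild type (24 and 3 fragments in all, exact 95% counting interval 1.79 to 30.6) and 3.56 times knock-in (24 and 8 fragments, interval 1.55 to 9.16). The intervals cover counting error only, and without the filter on low counts edgeR's adjusted p was 0.251 for knockout against wild type and 0.324 for knockout against knock-in. The mean retinal level of Snx31 was 0.96% of its RPE/choroid level in knockout, 1.83% in knock-in and 1.11% in wild type.

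Some markers of the RPE also differed between genotypes in these retinas, of which Rpe65 was picked after its value was seen. The RPE gene Rpe65 averaged 8.47 ± 2.13 FPKM in knockout, 5.55 ± 0.91 FPKM in knock-in and 2.99 ± 0.493 FPKM in wild-type retina (SD, n = 3 each), which is 0.812%, 0.473% and 0.253% of its RPE/choroid level. Its log2 fold change of knockout over wild type was 1.48 (SE 0.184, edgeR adjusted p = 0.00222). In that comparison 4 of the 12 RPE markers, Rpe65 included, were called by edgeR, against 0.98% of all genes. The count holds calls in either direction, and only that of Rpe65 is given here. The summed level of the 12 markers overlapped, at 408.7 to 508.0 FPKM in knockout, 447.4 to 483.1 FPKM in knock-in and 445.8 to 458.3 FPKM in wild-type retina. The sum includes Rlbp1 and Trpm1, which also stand in the marker lists of Muller glia and inner retinal neurons. It therefore cannot show how much RNA of the RPE these retinas held. Whether RNA of the RPE contributes to the retinal Snx31 values was not tested.

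Rhbdl2 and Il12b had 0 fragments in all wild-type retinas, which allows up to 3 fragments in 40.8 M, or 0.0736 per M. In knockout and knock-in retina Rhbdl2 had 2 fragments each and Il12b 1 each. Ooep had 3 fragments in knockout, 7 in knock-in and 5 in wild-type retina, and Slc6a4 had 4, 5 and 3. At these counts no difference between genotypes was detectable in retina. Of the mast cell markers, Mcpt4, Mrgprb2 and Ms4a2 were at 0 in all 9 retinal libraries.

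Between tissues, the 10 genes fall by level into those of RPE/choroid and those of both. In wild-type mice, the mean retinal level of Snx31, Ooep and Slc6a4 was 1.11%, 1.87% and 1.57% of that in RPE/choroid. Rab3b, Fam69c and Mrps12 had a higher FPKM in wild-type retina than in wild-type RPE/choroid, at 192.8%, 161.1% and 128.1%. In knockout mice the order turned for Rab3b and Mrps12, whose retinal level was 74.3% and 71.8% of that in RPE/choroid, while Fam69c stood at 235.6%. The tables of the tissues were made separately, so these shares are a description.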

How the data were processed

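Gene tables of retina and RPE/choroid were analysed as the authors deposited them. Reads were 100 bases, paired, from a stranded kit, per the labels' protocols. Mapping to mm9 with TopHat and Bowtie2 and quantification with Cufflinks are per the submitters' processing notes, with versions and annotation not given in the sources used here. Tables as deposited hold expected counts of fragments (98.5% whole in retina, 98.4% in RPE/choroid, the rest rounded here) and FPKM, both per the file headers. The deposited transcript tables give lengths in bases, and the authors' deposited retinal comparison gives q-values. Deposited starts count from 0 and are printed from 1. The tables number libraries 0 to 2 and the labels 1 to 3, and nothing links them, so table numbers are used. The tables mark 10 retinal and 3 RPE/choroid estimates as failed.

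Counts were fitted per tissue over 9 libraries with edgeR 4.0.16 in R 4.3.3 (robust quasi-likelihood, TMM scaling, filterByExpr), with Benjamini-Hochberg adjustment over all genes and a threshold of 0.05. The test covered 14699 genes in retina and 15454 in RPE/choroid, with a biological coefficient of variation of 0.114 and 0.154. Alternatives were DESeq2 1.42.0, limma 3.58.1 on log2(FPKM + 1), RLE scaling, no expression filter, a replicate block, terms for sex, lens or rod content, and each library left out. On simulated data for knockout against wild type with 200 changed genes, the fit found 59.7% of those changed 1.5-fold, 76.1% at 2-fold and 92.4% at 4-fold in retina (9 of 161 calls among 14699 genes false). In RPE/choroid the shares were 50.7%, 65.7% and 84.8% (10 of 144 calls among 15454 genes false). The simulated counts were drawn independently per gene and library, with no rod-rich library and no differences in sex or lens content. These shares hold for such counts only.

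Likeness is Pearson's r of log2 CPM over the 9 RPE/choroid libraries. Candidates passed the filter on low counts, averaged at least 1 FPKM in a genotype and were none of the 10 genes. Symbols passed over for the neighbours were passed over here too. The genes named are the 10 genes, called genes and the 2 most abundant of each partner list, the nearest tested neighbours, the 3 most alike genes (1 of those of Fam69c is not reported here) and Abca4. Genes that DESeq2 alone called, genes called within 1 Mb, Rpe65 and 8030443G20Rik were added after their values were seen. The 10 genes, the lists and the markers were chosen with earlier results of these data known.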

Additional observations from a re-analysis of the deposited data

How the results depend on the processing

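The 10 genes were chosen by their differences between the RPE/choroid libraries, so their values under the alternatives are a description. Over the 3 RPE/choroid comparisons, 435 alternative log2 values of the 10 genes moved by less than the spread between replicates. The 15 that moved more were 13 on log2(FPKM + 1), a scale that shrinks low genes, and the Il12b pair without knockout library 0 (-2.28 and -1.94). In retina 226 values kept their side of the threshold, 6 passed it and 8 fell short of it. Counting overlap in CPM, an alternative chosen after seeing the data, gave 9, 10 and 3 genes in RPE/choroid, as many as in FPKM, with Tnfaip6 in place of Mrps12 among the 3. In retina it gave 3, 2 and 2 genes, against 4, 2 and 4 in FPKM.

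The background counts of called genes depended on the tool. In RPE/choroid, edgeR called 73 genes for knockout against wild type, 70 for knockout against knock-in and 10 for knock-in against wild type, DESeq2 522, 309 and 43, and limma 19, 24 and 2. With a term for rod content the first 2 counts were 388 and 183. In retina edgeR called 144, 185 and 39 genes, DESeq2 323, 322 and 115, and limma 27, 18 and 10. With a term for sex the last 2 retinal counts were 289 and 14, and with a term for lens content the first was 61. Of the 10 genes, the number called in retina, knockout against wild type, was 1 with edgeR, 2 with DESeq2 or without the expression filter (Rab3b besides Tnfaip6), and 0 with limma or a term for sex or lens content. The cause of these differences was not tested.

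Without 1 library, called genes ran from 22 to 462 (462 without wild-type library 2), from 28 to 190 and from 2 to 14 in these RPE/choroid comparisons. In retina they ran from 53 to 253, from 103 to 216 and from 15 to 60. Of the 10 genes, 0 to 2 passed in retina, knockout against wild type, and 0 in the other retinal comparisons.

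Whether the table numbers pair the samples cannot be told from these values. The correlation of same-numbered deviations ran from -0.468 to 0.213 in retina and from -0.118 to 0.243 in RPE/choroid. It is taken over all genes and cannot show whether the number acts on some of them. With the number as a replicate block, 28, 36 and 4 genes were called in RPE/choroid and 194, 271 and 45 in retina. Under the block 2 of the 10 genes passed in retina, knockout against wild type, and 1, Rab3b, for knockout against knock-in. The retinal SE of knockout over wild type went from 0.246 to 0.164 for Rab3b and from 0.163 to 0.118 for Mrps12. For Ppp1r1b, Tnfaip6 and Fam69c it went from 0.191 to 0.186, from 0.298 to 0.291 and from 0.151 to 0.158.

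Depth limits the 5 genes with 0 to 12 retinal fragments per library, for which no retinal difference between genotypes passed a test over libraries. For Snx31 the ratio of pooled counts has an interval that covers counting error only.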
